A study of Mus musculus with 8 samples.

Results

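Transcripts of 32 marker genes of macrophages and other myeloid cells were compared between pancreatic islets of a pair of inbred mouse strains, AKR/J and C57Bl/6J. The genes were given by name, and every probe set (a group of short probes for 1 transcript) that the platform annotation assigns to one of them was taken, 59 probe sets in all. For each gene the probe set with the highest mean over the 8 arrays stood for it, which makes 32 of the 18193 genes with a probe set of their own. Mice of both strains had eaten a high-fat diet for 3 months, and islets of 2 mice were pooled for each RNA sample. There were 4 samples of AKR/J, numbered 1 to 4, and 4 of C57Bl/6J, numbered 5 to 8, each hybridised to 1 Affymetrix MOE 430 array. Age and sex are not given in the sources used here. Other diets were not analysed here, so strains are compared under high-fat feeding alone.

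Macrophages are phagocytes that live in nearly every tissue, and in the islet they lie along capillaries among the endocrine cells. They depend on the growth factor receptor encoded by Csf1r and on the transcription factor PU.1, encoded by Spi1. They bind antibody through Fc receptors, make the complement protein C1q, take up debris through scavenger receptors and digest it in lysosomes. Islet macrophages are known to increase in obesity. Several of the 32 genes, such as Ptprc, Cd53, Laptm5 and Itgb2, are also active in other white blood cells.

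All values are log2 GCRMA intensities, and a difference is AKR/J minus C57Bl/6J on that scale. Between 43.7% and 48.1% of the probe sets were detected per array. For AKR/J the share was 44.9% ± 1.55 and for C57Bl/6J it was 47.0% ± 1.18 (SD, n = 4 each), and its part in the results was not tested. Within a strain, arrays correlated with each other at 0.985 to 0.993, and between strains at 0.966 to 0.975. The 10 measured islet endocrine genes, among them the insulin gene Ins2, all passed the detection filter. The labels do not say whether pools shared a litter or cage, so p-values measure the spread between these pools, and 4 arrays per strain limit their precision.

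Of the 27 measurable macrophage genes, 14 were called lower in AKR/J islets and 0 were called higher. Of the 32 genes, 27 had a representative probe set detected on at least 4 of the 8 arrays and were tested. Of these 27, 14 were lower in AKR/J at a limma adjusted p under 0.05, which is 51.9%, against 8.73% of the 10573 genes tested. Leaving out each array in turn gave 8 to 13 lower genes, against 5.77% to 8.4% of all tested genes. The count of 0 higher genes compares with 7.9% of all tested genes; all 27 differences were negative, so at an unadjusted p under 0.05 the count was also 0. In 12 of the 27 every AKR/J array lay below every C57Bl/6J array, which held for 12% of all tested genes. The median difference was -0.49 over the 32 genes and 0.02 over all genes. A lower signal in islet RNA cannot tell fewer macrophages from less of these transcripts per cell.

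The decrease was seen across arrays, with 1 AKR/J pool nearer to the other strain. The mean deviation of the 32 genes from their 8-array means was -0.24, -0.36, -0.38 and -0.08 on AKR/J arrays 1 to 4. It was 0.15, 0.31, 0.35 and 0.25 on C57Bl/6J arrays 5 to 8. The strain means were -0.27 ± 0.14 and 0.27 ± 0.09 (SD, n = 4 each), and the arrays did not overlap. AKR/J array 4 was the highest of its strain for 18 of the 27 tested genes and the lowest for 0, and array 3 was the lowest for 13. In C57Bl/6J, array 7 was the highest for 13 genes and array 5 the lowest for 13. Without C57Bl/6J array 6, the count of genes called lower fell from 14 to 8, with 6.54% of all tested genes called lower.

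**Figure D1:**
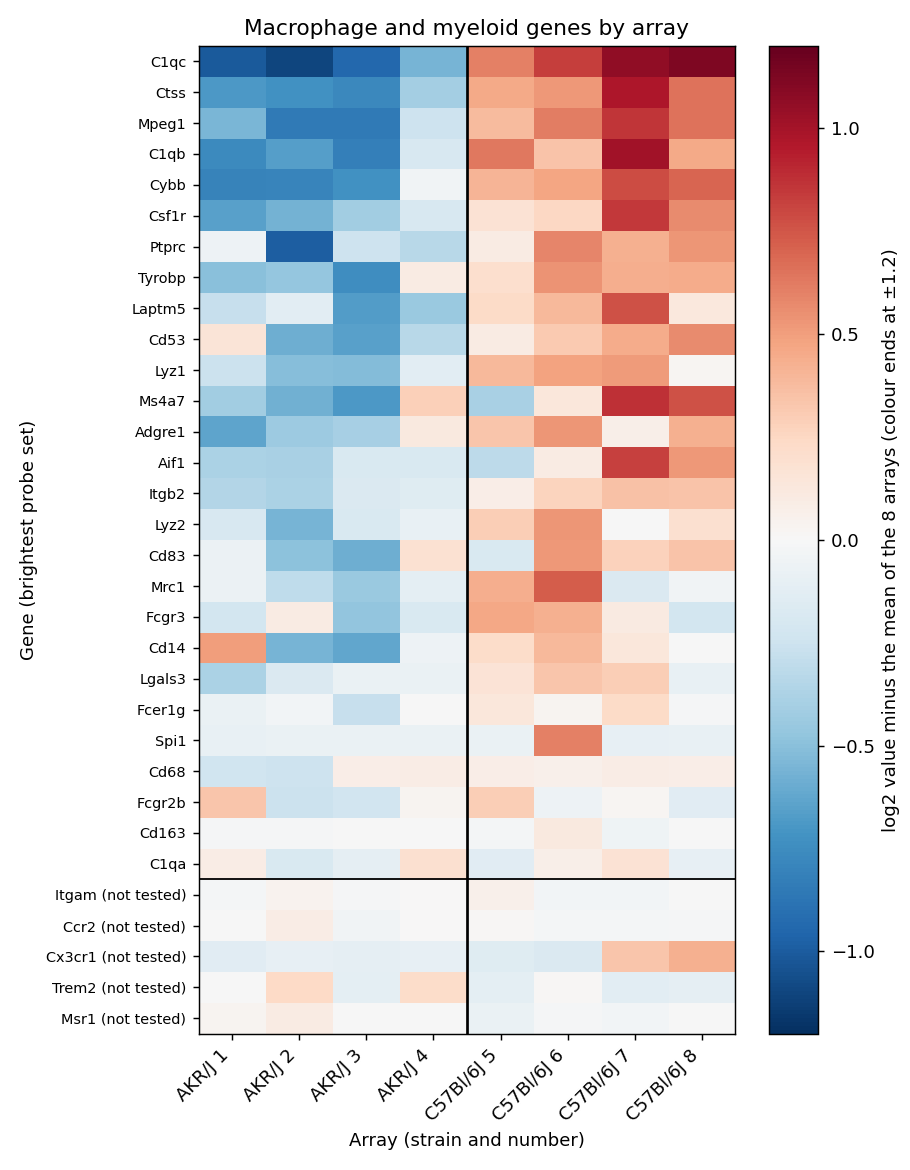
Heat map of log2 GCRMA intensity minus the 8-array mean for the 32 macrophage and myeloid genes (vertical axis, brightest probe set of each) on the 4 AKR/J and 4 C57Bl/6J arrays (horizontal axis), with the 27 tested genes ordered by difference above the 5 that were not tested. The 14 genes called lower in AKR/J are mostly blue on arrays 1 to 4 and red on arrays 5 to 8, and AKR/J array 4 is the palest of its strain for many of them.

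On the GCRMA scale the C1q genes gave both the largest and the smallest difference among the tested genes. C1q, the protein that starts the classical complement pathway, is built from the chains encoded by C1qa, C1qb and C1qc, which lie side by side, and tissue macrophages are a main source of it. C1qc measured 4.46, 4.36, 4.52 and 4.91 in AKR/J and 6.07, 6.29, 6.53 and 6.59 in C57Bl/6J. The strains did not overlap, and C1qc was 3.50-fold lower in AKR/J (difference -1.81, SE 0.154, 95% interval -2.16 to -1.45, limma adjusted p = 0.000219). The brightest C1qb probe set measured 6.76, 6.87, 6.71 and 7.33 in AKR/J and 8.16, 7.87, 8.53 and 7.98 in C57Bl/6J. C1qb was 2.33-fold lower in AKR/J, again with no overlap (difference -1.22, SE 0.182, 95% interval -1.64 to -0.80, limma adjusted p = 0.00369).

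C1qa showed no such difference. Its only probe set measured 9.24, 8.97, 9.04 and 9.35 in AKR/J and 9.02, 9.22, 9.33 and 9.06 in C57Bl/6J. The strains overlapped fully (difference -0.01, 95% interval -0.26 to 0.25, limma adjusted p = 0.973), so a difference as large as that of C1qb or C1qc lies outside its interval. On the deposited MAS5-type signals, without further processing, C1qa differed by 0.01 as well, C1qb by -1.23 and C1qc by -1.12. So the order of C1qb and C1qc turned with the scale, while C1qa lay near 0 on both. MAS5-type differences given for other genes come from the alternative fit, whose values differ slightly.

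The other C1qb probe sets moved like the first. Probe set 1417063_at measured 6.16, 6.03, 6.45 and 6.85 in AKR/J and 7.76, 7.95, 8.17 and 7.98 in C57Bl/6J, 3.01-fold lower without overlap (limma adjusted p = 0.000998). Probe set 1434366_x_at measured 5.59, 6.17, 5.98 and 6.03 against 6.89, 6.75, 7.30 and 6.79, 1.99-fold lower (limma adjusted p = 0.00535). So 4 of the 5 C1q probe sets were lower in AKR/J, against 7.7% of the 20772 probe sets tested. On MAS5-type signals 3 of 5 passed, and 1434366_x_at did not (adjusted p = 0.0626). For a gene with a single probe set, as C1qa and C1qc, a strain difference in the bases under the probes and one in transcript level cannot be told apart.

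**Figure D2:**
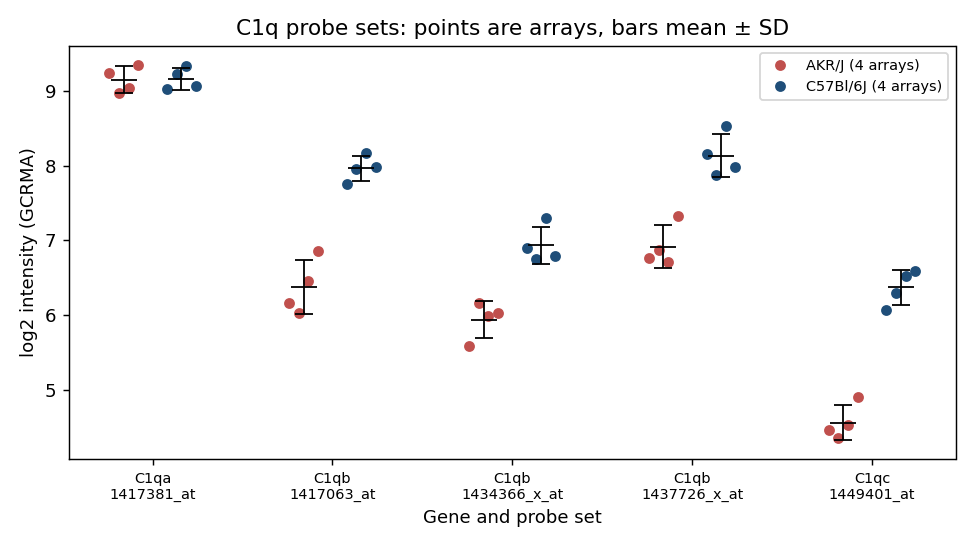
Log2 GCRMA intensity (vertical axis) of the 5 C1q probe sets (horizontal axis) on 4 AKR/J arrays (red) and 4 C57Bl/6J arrays (blue), with bars for the mean ± SD. The strains separate for the 3 C1qb probe sets and for C1qc, with C1qc means of 4.56 and 6.37, and lie on top of each other for C1qa, with means of 9.15 and 9.16.

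The sequences upstream of C1qb, C1qc and Ctss, which were called lower in AKR/J, are shown because PU.1 is the factor that myeloid genes share. RefSeq promoters (assembly GRCm38.p6) were given for 23 of the 32 genes. The letters GAGGAA, a core that PU.1-type factors bind, were sought on both strands in the 250 bases before the start. They were present in 12 of the 23 (52.2%) and in 25.9% of 27025 genes. The 12 held the called genes C1qb, C1qc, Ctss, Ptprc, Cd53 and Laptm5. They also held Cd68, Fcgr3, Mrc1 and Aif1, which were not called, and the untested Itgam and Trem2. The called genes Cybb, Lyz1 and Lyz2 had promoters among the 23 without these letters. A relation of the letters to the strain difference was not tested. The longer GAGGAAGT, which contains the core, was present in 1 of the 23 (C1qc, 4.35%) and in 2.79% of all. TGANTCA, the AP-1 type motif, was present in 4 of the 23 (17.4%) and in 7.82% of all. These matches are a description of letters, not of binding. The 250 bases before the start of C1qb (chr4:136886201-136886450, minus strand), C1qc (chr4:136892915-136893164, minus strand) and the cathepsin gene Ctss (chr3:95526536-95526785, plus strand) follow, 5′ to 3′ along the gene, with GAGGAA or its reverse complement in capitals.
C1qb: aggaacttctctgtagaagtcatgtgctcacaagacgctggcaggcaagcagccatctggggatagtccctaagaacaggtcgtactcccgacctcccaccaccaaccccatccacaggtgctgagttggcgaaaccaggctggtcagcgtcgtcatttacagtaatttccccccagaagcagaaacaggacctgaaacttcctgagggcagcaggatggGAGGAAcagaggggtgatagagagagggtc
C1qc: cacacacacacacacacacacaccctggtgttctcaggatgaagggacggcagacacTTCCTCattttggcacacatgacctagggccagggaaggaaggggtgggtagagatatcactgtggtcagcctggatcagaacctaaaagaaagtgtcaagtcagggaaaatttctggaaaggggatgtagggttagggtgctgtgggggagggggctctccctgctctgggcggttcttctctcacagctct
Ctss: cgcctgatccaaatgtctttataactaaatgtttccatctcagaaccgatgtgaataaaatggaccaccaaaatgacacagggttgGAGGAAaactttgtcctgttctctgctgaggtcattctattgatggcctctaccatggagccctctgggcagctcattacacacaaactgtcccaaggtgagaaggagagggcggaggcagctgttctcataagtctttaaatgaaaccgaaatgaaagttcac
The motif begins 30 bases before the start in C1qb, 193 in C1qc and 164 in Ctss.

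Among the receptors for growth factors and chemokines, Csf1r was the 1 gene of 3 whose brightest probe set could be tested, and it was lower in AKR/J. Csf1r encodes the receptor for the growth factors that keep macrophages alive. It measured 7.05, 7.13, 7.28 and 7.51 in AKR/J and 7.88, 7.95, 8.55 and 8.27 in C57Bl/6J. The strains did not overlap (1.89-fold lower, difference -0.92, SE 0.167, 95% interval -1.30 to -0.53, limma adjusted p = 0.00932). A second Csf1r probe set, 1419873_s_at, differed by -0.44 with overlap (limma adjusted p = 0.159), and the remaining one was not detected. Ccr2 and Cx3cr1, the chemokine receptors of monocytes and of many tissue macrophages, had representatives detected on 0 arrays. Cx3cr1 lay at 4.76 to 4.79 on AKR/J arrays and at 4.72 to 5.32 on the others. Of the other Ccr2 probe sets, 1421186_at differed by -0.11 and 1421188_at by 0.06 (limma adjusted p = 0.684 and 0.767). A further one, 1421187_at, was detected on 0 AKR/J and 3 C57Bl/6J arrays and was not tested, at 2.48, 2.68, 2.73 and 2.73 against 2.73, 2.72, 3.81 and 2.97.

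The single transcription factor on the list gave no usable level. Spi1, which encodes PU.1, was detected on 1 AKR/J array and on all 4 C57Bl/6J arrays. It measured 2.20 on all 4 AKR/J arrays, and 2.20, 2.88, 2.18 and 2.19 in C57Bl/6J, near the bottom of the scale. Its difference was -0.17 (limma adjusted p = 0.525), and it rests on array 6 alone: without that array it was 0.0076.

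Of 5 genes for Fc receptors and receptor adaptors, 4 were tested and 1 was lower. Tyrobp encodes DAP12, the adaptor that couples activating receptors of myeloid cells to kinases. It measured 5.78, 5.82, 5.54 and 6.38 in AKR/J and 6.49, 6.82, 6.72 and 6.73 in C57Bl/6J, with no overlap. Tyrobp was 1.75-fold lower in AKR/J (difference -0.81, SE 0.173, limma adjusted p = 0.0181). Leaving out array 1, 2 or 6 took its adjusted p to at most 0.0527. The related adaptor gene Fcer1g, the common gamma chain of Fc receptors, measured 6.23, 6.27, 6.03 and 6.30 in AKR/J and 6.45, 6.34, 6.53 and 6.29 in C57Bl/6J. The strains overlapped and the interval reached only to -0.40 (difference -0.19, limma adjusted p = 0.178).

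The Fc gamma receptors themselves did not pass the test. Fcgr3, an activating receptor for IgG, measured 5.13, 5.44, 4.87 and 5.17 in AKR/J and 5.81, 5.77, 5.46 and 5.13 in C57Bl/6J. Its difference was -0.39 (95% interval -0.80 to 0.02, limma adjusted p = 0.183). Fcgr2b, the inhibitory receptor, measured 5.48, 4.88, 4.92 and 5.17 against 5.44, 5.08, 5.17 and 5.01, a difference of -0.06 (limma adjusted p = 0.834). Its probe sets were not alike: 1435477_s_at measured 4.0, 3.84, 3.37 and 3.91 in AKR/J and 4.13, 4.45, 4.24 and 4.91 in C57Bl/6J, without overlap, and still missed the threshold (difference -0.65, limma adjusted p = 0.064). Trem2, a lipid-sensing receptor that signals through DAP12, was detected on 0 arrays, with values of 3.29 to 3.66.

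Of the 8 surface and adhesion genes, 7 were tested and 4 were lower in AKR/J. Ptprc encodes CD45, the phosphatase found on all white blood cells. It measured 6.49, 5.56, 6.30 and 6.21 in AKR/J and 6.64, 7.13, 6.97 and 7.07 in C57Bl/6J. Ptprc was 1.76-fold lower without overlap (difference -0.82, SE 0.205, limma adjusted p = 0.034), and the call was lost without array 3, 4, 6, 7 or 8 (adjusted p at most 0.0878). Cd53, a tetraspanin of white blood cells, measured 5.88, 5.15, 5.07 and 5.40 against 5.83, 6.04, 6.17 and 6.30. Array 1 of AKR/J overlapped the other strain (1.63-fold lower, SE 0.186, limma adjusted p = 0.0398), and the call held only without array 1 or 5 (adjusted p at most 0.103 without another).

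Adgre1, which encodes the classic surface antigen of mouse macrophages, and the integrin gene Itgb2 were the other called surface genes. Adgre1 measured 4.34, 4.54, 4.58 and 5.09 in AKR/J and 5.31, 5.51, 5.05 and 5.40 in C57Bl/6J. AKR/J array 4 overlapped C57Bl/6J array 7 (1.60-fold lower, difference -0.68, SE 0.169, limma adjusted p = 0.0332), and leaving out array 1, 2, 3, 5, 6 or 8 lost the call (adjusted p at most 0.0875). Itgb2, the beta chain that CR3 and LFA-1 share, measured 3.73, 3.70, 3.90 and 3.93 against 4.16, 4.34, 4.43 and 4.42. Though dim, it separated the strains (1.44-fold lower, difference -0.52, SE 0.0906, limma adjusted p = 0.00754) and kept its call without any single array. Itgam, the alpha chain of CR3, was detected on 1 array, with values of 2.48 to 2.58, and was not tested.

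The remaining surface genes missed the threshold. Ms4a7, a tetraspan gene of mature macrophages, measured 5.33, 5.16, 5.06 and 6.03 in AKR/J and 5.36, 5.88, 6.62 and 6.51 in C57Bl/6J (difference -0.70, limma adjusted p = 0.188). Cd83, an activation marker, differed by -0.48 (95% interval -0.96 to 0.0027, limma adjusted p = 0.169). Cd68, a lysosomal glycoprotein much used to stain macrophages, was detected on all 8 arrays but lay at 2.51 to 2.85 (difference -0.16, limma adjusted p = 0.32). Its MAS5-type log2 signals of 4.93 to 6.06 overlapped between the strains too.

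Of the scavenger and pattern receptors, 3 of 4 were tested and 0 were called, with 1, Mrc1, at an unadjusted p under 0.05. Mrc1, the mannose receptor of resident macrophages, measured 5.41, 5.17, 5.03 and 5.35 in AKR/J and 5.91, 6.20, 5.30 and 5.43 in C57Bl/6J (difference -0.47, 95% interval -0.94 to -0.0069, limma adjusted p = 0.161). Cd14, the co-receptor for bacterial lipopolysaccharide, was detected on 2 arrays per strain and differed by -0.37 (limma adjusted p = 0.347). Cd163, the haptoglobin-hemoglobin receptor, lay at 3.32 to 3.50 and differed by -0.02 (limma adjusted p = 0.859). On the MAS5-type scale Cd163 differed by -1.80, still not called (adjusted p = 0.172). Msr1, scavenger receptor A, was detected on 0 arrays, at 3.23 to 3.40.

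The lysosomal, killing and cytosolic genes held the most calls, 6 of 8 tested. Ctss encodes cathepsin S, the lysosomal protease that trims the invariant chain of MHC class II. It measured 9.53, 9.49, 9.45 and 9.81 in AKR/J and 10.67, 10.73, 11.19 and 10.87 in C57Bl/6J, with no overlap. Ctss was 2.46-fold lower in AKR/J (difference -1.30, SE 0.132, 95% interval -1.60 to -0.99, limma adjusted p = 0.000574), and its MAS5-type difference was -0.75. Mpeg1, which encodes the pore-forming protein perforin-2, measured 5.98, 5.69, 5.69 and 6.29 against 6.92, 7.15, 7.39 and 7.18. It was 2.38-fold lower without overlap (difference -1.25, SE 0.158, limma adjusted p = 0.00169).

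Cybb encodes the catalytic subunit of the phagocyte NADPH oxidase, which makes superoxide. Its brightest probe set measured 4.84, 4.85, 4.92 and 5.60 in AKR/J and 6.05, 6.12, 6.42 and 6.34 in C57Bl/6J. Cybb was 2.27-fold lower without overlap (difference -1.18, SE 0.184, limma adjusted p = 0.00444). Probe set 1422978_at was detected on 0 AKR/J arrays and all 4 C57Bl/6J arrays, at 3.31, 3.02, 3.87 and 3.87 against 5.23, 5.06, 5.82 and 5.36. Its difference was -1.85 (limma adjusted p = 0.00175), and -1.36 on the deposited MAS5-type signals without further processing. With 0 AKR/J arrays detected, no exact fold is given. This probe set passed the detection filter on its C57Bl/6J arrays alone, so its call could hardly have gone the other way. Another, 1436779_at, differed by -0.05 (limma adjusted p = 0.665).

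Both lysozyme genes were called lower on their brightest probe sets, though the Lyz1 probe sets were not alike. Lyz1 and Lyz2 encode near-identical enzymes that cut bacterial cell walls, and macrophages make mainly the Lyz2 form. The brightest Lyz1 probe set measured 9.82, 9.56, 9.55 and 9.95 in AKR/J and 10.47, 10.56, 10.58 and 10.10 in C57Bl/6J, 1.63-fold lower without overlap (difference -0.71, SE 0.138, limma adjusted p = 0.0124). Lyz2 measured 7.62, 7.25, 7.62 and 7.72 against 8.11, 8.34, 7.81 and 8.0, 1.42-fold lower (difference -0.51, SE 0.14, limma adjusted p = 0.0463). The strains did not overlap for Lyz2, but its call was lost without any 1 array except array 7 (adjusted p at most 0.103). A second Lyz1 probe set, 1439426_x_at, at 8.65 ± 0.22 and 9.07 ± 0.19 (SD, n = 4 each), missed the threshold (limma adjusted p = 0.0788). The only Lyz1 probe set without a suffix for possible cross-hybridisation, 1450822_at, was detected on 0 arrays, at 2.42 to 2.47 in both strains.

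The genes are neighbours, and a transcript of one can bind probes of the other, so which lysozyme these values report is uncertain. Their likeness reaches into the promoters. In the 130 bases before the start, Lyz1 (chr10:117292869-117292998, minus strand) and Lyz2 (chr10:117282273-117282402, minus strand) share 120 bases (92.3%) without a gap. The 10 that differ are in capitals below, 5′ to 3′ along the gene (RefSeq, GRCm38.p6).
Lyz1: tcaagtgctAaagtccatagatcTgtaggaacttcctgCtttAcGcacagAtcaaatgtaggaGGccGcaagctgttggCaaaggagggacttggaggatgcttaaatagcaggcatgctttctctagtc
Lyz2: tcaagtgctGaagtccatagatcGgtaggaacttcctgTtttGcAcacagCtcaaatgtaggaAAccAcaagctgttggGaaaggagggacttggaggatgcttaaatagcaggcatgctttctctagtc
The window was set to the stretch over which the pair stays aligned without a gap.

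Laptm5, a lysosomal membrane protein of blood cells, completed the called genes. It measured 6.63, 6.79, 6.24 and 6.47 in AKR/J and 7.14, 7.30, 7.68 and 7.04 in C57Bl/6J, 1.69-fold lower without overlap (difference -0.76, SE 0.165, limma adjusted p = 0.0201). The call was lost without array 4 or 6 (adjusted p at most 0.0562), and its other tested probe sets differed by -0.22 and -0.09 (limma adjusted p = 0.157 and 0.63). Aif1, which encodes the actin-binding protein IBA1, measured 5.36, 5.35, 5.56 and 5.56 against 5.43, 5.84, 6.55 and 6.26. It missed the threshold (difference -0.57, limma adjusted p = 0.134) and passed it without array 5 (0.0326). Lgals3, the lectin galectin-3, differed by -0.35 (95% interval -0.61 to -0.09, limma adjusted p = 0.0795) and passed without array 8 (0.0314).

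**Figure D3:**
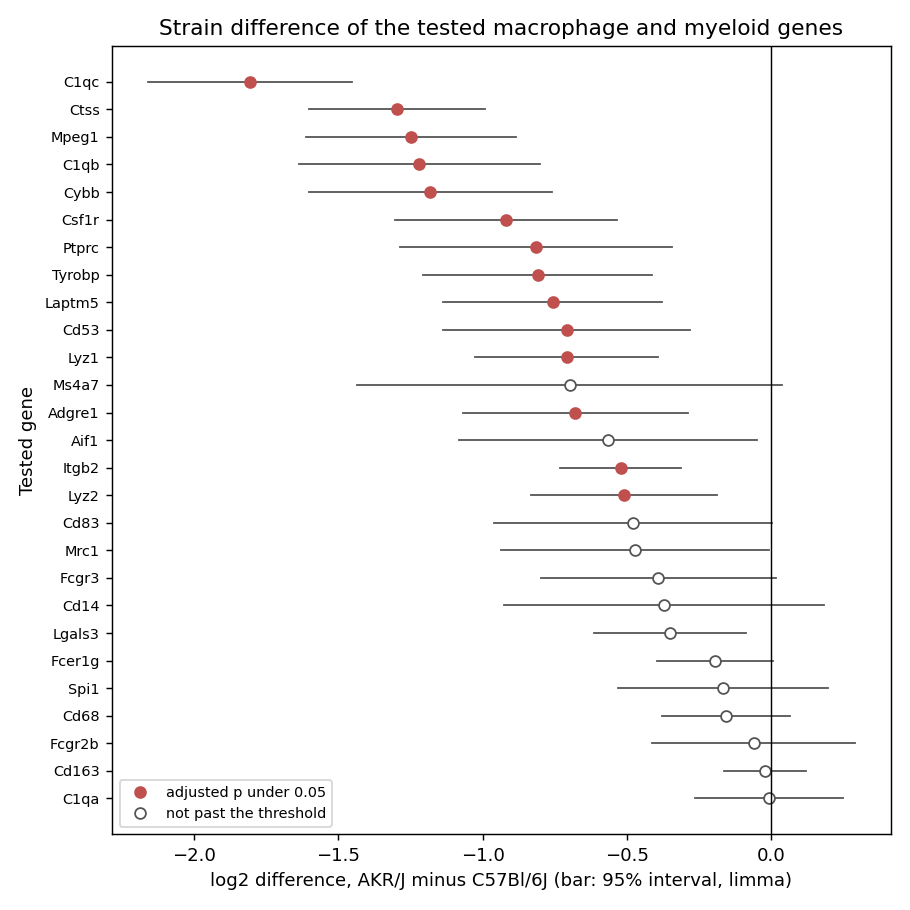
Difference AKR/J minus C57Bl/6J in log2 GCRMA intensity (horizontal axis, 4 arrays per strain) for the 27 tested macrophage and myeloid genes (vertical axis); bars are 95% intervals from limma, filled points passed an adjusted p of 0.05 and open points did not. All 27 points lie below 0, from -1.81 for C1qc to -0.01 for C1qa.

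The calls of 8 genes held throughout. Itgb2, Csf1r, C1qb, C1qc, Ctss, Lyz1, Mpeg1 and Cybb passed under every alternative in which they were tested and without each array in turn. Lyz1 could not be tested without suffixed probe sets. Adgre1, Ptprc, Cd53, Tyrobp, Laptm5 and Lyz2 lost their calls under at least 1. The 8 include 1 surface gene, 1 growth factor receptor, both called C1q genes and 4 of the lysosomal and killing genes.

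Other myeloid genes are read against the 8.73% of all tested genes that were called lower. Of 36 further macrophage and myeloid genes with a probe set, 17 were tested and 3 were lower, and 14 were detected on 0 arrays. The median difference was -0.07 over all 36 and -0.38 over the 17 tested, against -0.57 over the 27 tested members. Ly86, which encodes the MD-1 partner of a Toll-like receptor relative, measured 5.28, 5.28, 5.13 and 5.38 in AKR/J and 6.35, 6.65, 7.27 and 6.63 in C57Bl/6J. It was 2.75-fold lower without overlap (limma adjusted p = 0.00155). Tlr2, the receptor for bacterial lipopeptides, was 1.48-fold lower (limma adjusted p = 0.0203; at most 0.0552 without array 5), and Alox5ap, which leukotriene synthesis needs, 1.55-fold (0.0206; at most 0.0552 without array 1, 2 or 8). Of 13 myeloid transcription factor genes, 8 were tested and 2 zinc finger genes were lower: Klf4 by 1.64-fold (limma adjusted p = 0.0224; at most 0.0609 without array 6 or 8) and Egr2 by 1.64-fold (0.0438; at most 0.111 without array 1, 2, 3, 6, 7 or 8).

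Of 16 genes for macrophage growth factors and chemokines, 11 were tested and 2 were lower. Ccl3, a chemokine that macrophages make, was detected on 0 AKR/J arrays and all 4 C57Bl/6J arrays, at 3.58, 3.87, 3.68 and 4.02 against 5.23, 5.15, 5.19 and 6.12. Its difference was -1.64 (limma adjusted p = 0.00246), and -1.26 on the deposited MAS5-type signals without further processing, so no exact fold is given. Ccl3 passed the detection filter on its C57Bl/6J arrays alone, so its call could hardly have gone the other way. Ccl9, another macrophage chemokine, was 1.74-fold lower (limma adjusted p = 0.00767). Csf1, the main ligand of Csf1r, measured 5.82, 5.06, 5.66 and 5.75 in AKR/J and 7.01, 6.57, 5.89 and 5.77 in C57Bl/6J, not past the threshold (difference -0.74, limma adjusted p = 0.14).

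Of 12 Fc receptor and ITAM signalling genes, 5 were tested and 0 were called, with 2 at an unadjusted p under 0.05; the brightest, the phosphatase gene Ptpn6, differed by 0.15 (limma adjusted p = 0.319). Plcg2, a phospholipase of the same pathway, differed by -0.33 (limma adjusted p = 0.125). Of the 5 other NADPH oxidase genes with a probe set, only Rac1, a GTPase gene expressed in all cells, was tested, at a difference of 0.18 (limma adjusted p = 0.275). The complement genes after C1q went both ways: of 16 with a probe set, 8 were tested, 2 were higher and 3 lower. Cd93 (difference 0.49, limma adjusted p = 0.00669), a receptor also made by endothelium, and the chaperone gene Clu (0.44, 0.0376) were higher in AKR/J. Cd59a (-0.51, 0.00487), a shield against the membrane attack complex, and Cfi (-1.04, 0.0333), a protease that degrades C3b, were lower. Leaving out array 1, 2, 3, 4 or 8 ended the call of Clu (limma adjusted p at most 0.0964), and leaving out any of arrays 1 to 6 that of Cfi (at most 0.0843). With MAS5-type signals Cd93 (limma adjusted p = 0.0688), Cd59a (0.0545) and Clu lost their calls, while Cfi kept its call.

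Markers of other cells that isolated islets can carry along were measured beside the macrophage genes. Acinar genes, of the digestive enzyme cells around the islets, were lower in AKR/J in 18 of 20 tested and higher in 1, Ctrc. Their summed linear intensity was 278050 to 328730 on AKR/J arrays and 474520 to 484320 on C57Bl/6J arrays. For the 32 macrophage genes it was 3248 to 4131 and 5635 to 7062. Endothelial genes went the other way, with 4 of 12 higher and 0 lower (sums of 5090 to 5803 and 4451 to 5114). With MAS5-type signals Cdh5, Esam and Tek lost their calls, and Ramp2 kept its call. Of all tested genes, 8.73% were called lower and 7.9% higher. Of 10 islet endocrine genes, 1 was higher and 2 were lower (sums of 210830 to 230460 and 194550 to 210090). The part of these markers in the macrophage result was not tested.

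Most markers of other white blood cells were not detected, B and plasma cell genes apart. Of the 8 T cell genes with a probe set, 6 were detected on 0 arrays, among them Cd3d, Cd3e, Cd3g, Cd4 and Cd8a, and 0 could be tested (sums of 53.8 to 57.4 and 52.8 to 63.5). None of the 7 mast cell and 7 dendritic cell genes could be tested, and 6 and 5 of them were detected on 0 arrays. Of 10 neutrophil genes 2 were tested and 0 called, with 1 at an unadjusted p under 0.05; S100a8, a calcium-binding protein gene of neutrophils and monocytes, measured 2.62, 3.12, 2.92 and 3.20 in AKR/J and 5.78, 5.42, 2.88 and 4.10 in C57Bl/6J (difference -1.58, limma adjusted p = 0.112). Of 8 B and plasma cell genes 4 were tested and 1 was lower: Igha, the IgA heavy chain, at 5.70, 4.44, 4.36 and 4.07 against 7.31, 9.02, 9.50 and 8.26 (limma adjusted p = 0.00224). Igha was detected on 1 of 4 AKR/J arrays, so no exact fold is given. The plasma cell gene Jchain missed the threshold (difference -2.07, adjusted p = 0.0532), while Ighm and Cd79a differed by 0.29 and 0.28, neither past the threshold, and the median over the 8 genes was 0.05. Within AKR/J, Igha was highest on array 1 and lowest on array 4. The part of these genes in the macrophage difference was not tested.

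**Figure D4:**
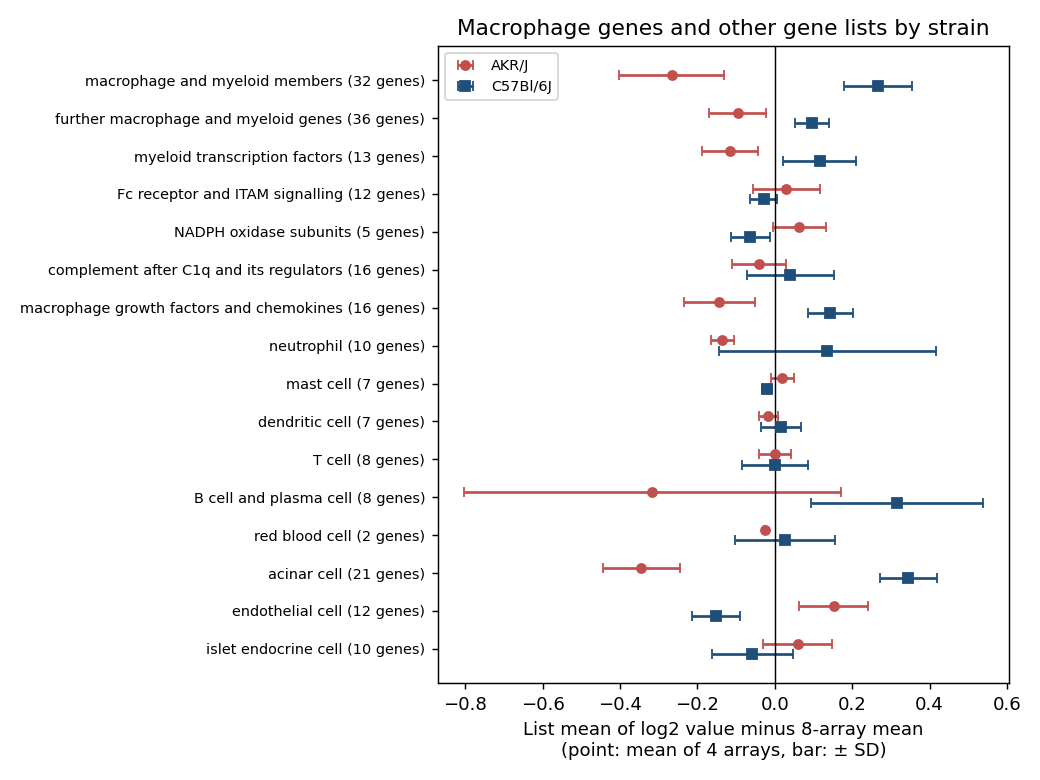
Mean over each gene list (vertical axis, with the number of genes that have a probe set) of the log2 value minus the 8-array mean (horizontal axis); points are means of the 4 arrays of a strain and bars ± SD. The 32 macrophage and myeloid genes stood at -0.27 (AKR/J) and 0.27 (C57Bl/6J), acinar genes at -0.35 and 0.35, and endothelial genes at 0.15 and -0.15.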

How the data were processed

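Islet RNA from 4 AKR/J and 4 C57Bl/6J pools was measured on Affymetrix arrays, with 5 µg of total RNA per array per the labels. The series value table holds linear intensity values, deposited by the authors and computed by GCRMA according to the submitters' processing notes (version not given in the sources used here). They ran from 1.53 to 69278 and were log2-transformed. Separate deposited files, 1 per array, give MAS5-type intensity and a detection p-value, per the file headers; detected means a detection p under 0.05. Value columns matched their arrays' own signals at r of at least 0.676, against at most 0.496 for others.

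Of 45101 probe sets, 64 controls were left out; 34945 name 1 gene, 932 several and 9160 none. Entrez identifiers matched 34741 to RefSeq (GRCm38.p6) and changed 0 symbols. Strains were compared with limma 3.58.1 (R 4.3.3), with lmFit and eBayes, on 20772 probe sets, those with detection on 4 or more of the 8 arrays. P-values were adjusted by Benjamini-Hochberg over all 20772, at a threshold of 0.05. The procedure was tested on simulated data. GCRMA compresses dim signals toward a common low value, so differences of dim genes can be understated. For the called macrophage genes except C1qb, however, the deposited MAS5-type signals gave smaller differences than GCRMA, such as -1.12 against -1.81 for C1qc.

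The members and all lists were chosen with earlier results of these data known, so lists are described by counts and medians and have no test of their own. Every member is accounted for; called genes, C1q, Fc receptor and lysozyme genes have their array values given. Of each other list, up to 4 called genes, smallest p first, or the 2 brightest tested were named; Csf1, Ins2, Jchain, Ighm, Cd79a, the T cell genes, and the values shown for Ms4a7, Mrc1, Aif1, Spi1 and Cd68 were chosen after their values were seen. Acinar, endothelial and endocrine lists are given by counts, with the called endothelial genes named for their MAS5-type result. Figures were drawn with Python 3.11.15 and matplotlib 3.10.9.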

Additional observations from a re-analysis of the deposited data

Results flagged for a closer look

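In 8 of 116 groups of 4 arrays, 1 array stood apart from the other 3 by Dixon's criterion (the gap relative to the group's range), where chance gives about 1 in 20. Of the macrophage genes, Spi1 stood at 2.88 on C57Bl/6J array 6 against 2.18 to 2.20 on the others. Cybb stood at 5.60 on AKR/J array 4 against 4.84 to 4.92. In AKR/J, Tlr2 stood at 6.91 on array 3 (others 7.37 to 7.40) and Klf4 at 8.16 on array 2 (others 8.74 to 8.79). On AKR/J array 1, Plcg2 was at 4.60 (others 5.05 to 5.09) and Cfi at 2.82 (others 2.54 to 2.54). In C57Bl/6J, Ccl3 stood at 6.12 on array 8 (others 5.15 to 5.23) and Ccl9 at 5.18 on array 6 (others 4.55 to 4.64).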

How the results depend on the processing

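The count of 14 lower macrophage genes became 8 of 32 without a detection filter, where 3.49% of all genes were called lower. It became 12 of 18 with detection on all 8 arrays (9.4% of all tested genes) and 10 of 27 with MAS5-type signals (6.2%). The count was 12 after further quantile normalization (7.92% of all) and 10 of 21 without _x_at, _s_at and _a_at probe sets (8.48%). It was 14 with centred arrays, with trend and robust, with array weights, with the mean of a gene's probe sets, and with 1 probe set per gene in fit and adjustment, an alternative chosen after seeing the data. Under the settings that gave 14, 8.95% to 9.89% of all tested genes were called lower. Leaving out each array gave 8 to 13, with 5.77% to 8.4% of all tested genes. The count of higher genes was 0 under every alternative. The median of -0.49 became -0.36 without the suffixed probe sets and ran from -0.56 to -0.40 with an array left out; the other alternatives gave -0.51 to -0.45. The 4 lower C1q probe sets became 2 of 3 without suffixed ones, 3 of 4 with detection on all 8 arrays and 3 of 5 with MAS5-type signals, and stayed 4 when each array was left out.

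No called gene changed sign. Of genes not called, MAS5-type signals turned Spi1 (0.0042), Fcer1g (0.18), Fcgr2b (0.14) and Cd14 (0.0072). C1qa turned with further quantile normalization (0.00072) and array weights (0.023). With an array left out, C1qa ran from -0.073 to 0.053, Fcgr2b from -0.18 to 0.028, Spi1 from -0.23 to 0.0076, Cd163 from -0.042 to 0.016, and Ngp, a neutrophil gene, from -0.014 to 0.011. The causes were not tested. No paired analysis was possible because the sample titles share no number between the strains. Signal over background limits Spi1, Cd68, Cd163, Itgam, Cx3cr1, Trem2, Msr1 and the brightest Ccr2 probe set, and with MAS5-type signals 6.2% of all tested genes were called lower.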
